A study of Mus musculus with 9 samples.

Results

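A set of 7 genes of neurotrophin signalling was followed through the mouse hippocampus: the neurotrophins Bdnf and Ntf3, their receptors Ntrk2, Ntrk3 and Ngfr, the secreted neuronal protein Vgf, and the transcription factor gene Creb1. They were chosen by name, and all 7 were among the 54532 genes of the expression tables. The series held 9 RNA-seq libraries of hippocampus from male C57BL/6 mice bought at 6 to 8 weeks of age, in 3 groups of 3. The control group (Con) ate a standard diet, the HMD group ate a high-methionine diet for 8 weeks, which raises homocysteine, and the Bet+HMD group drank 2.5% (w/v) betaine, a methyl donor, for 2 weeks after such a diet. The strain field of the 3 Bet+HMD libraries counts upwards from C57BL/6 to C57BL/8, while their growth protocol gives C57BL/6 for all. The labels do not say whether the methionine diet went on during the betaine weeks, and no label gives a library batch or date, so a batch that coincided with the Bet+HMD group and the treatment cannot be told apart. The labels give male mice and the study's methods female mice. In all 9 libraries Xist lay between 0 and 0.0449 FPKM and the Y-linked gene Ddx3y between 12.7 and 21.2 FPKM.

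Neurotrophins are secreted growth factors that neurons make as longer precursors, cut, and release in part in response to activity. BDNF binds TrkB (the product of Ntrk2) and neurotrophin-3 binds TrkC (Ntrk3), both receptor tyrosine kinases that act through the MAPK, PI3K and phospholipase C pathways, and p75 (Ngfr) binds all neurotrophins with lower affinity. CREB, made from Creb1, is a transcription factor that kinases downstream of calcium, cAMP and Trk receptors phosphorylate, and Bdnf and Vgf are among the genes it is known to act on. In the hippocampus this system is known for its part in synaptic plasticity and memory. The libraries measured mRNA of the whole gene, so the full-length and kinase-lacking receptor forms of Ntrk2 and Ntrk3 were pooled, as were the transcripts from the several start sites of Bdnf, and neither protein nor phosphorylated CREB was measured.

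Because Bdnf starts from several promoters and is a known CREB target, the bases before its start sites were searched for the cAMP response element, the sequence that CREB binds (TGACGTCA), and for its core (CGTCA or TGACG, which the whole element contains). RefSeq windows of 250 bases before a start (GRCm38.p6) were at hand for 5 of the 7 genes, 12 windows in all, 7 for Bdnf, 2 for Ntf3 and 1 each for Ntrk2, Ngfr and Creb1. None of the 12 held the whole element, which 508 of 32851 such mouse windows (1.55%) held on either strand. The core was in 1 of the 12, the third window of Bdnf along the gene, 35 bases before the start, while 5836 of all windows (17.8%) held it. That window is shown with the core in capitals, beside the window of the most upstream Bdnf start and that of the downstream Ntf3 start, which hold no match. A match describes the letters only and was not tested as a binding site.
Bdnf window with the core, chr2:109692186-109692435, plus strand: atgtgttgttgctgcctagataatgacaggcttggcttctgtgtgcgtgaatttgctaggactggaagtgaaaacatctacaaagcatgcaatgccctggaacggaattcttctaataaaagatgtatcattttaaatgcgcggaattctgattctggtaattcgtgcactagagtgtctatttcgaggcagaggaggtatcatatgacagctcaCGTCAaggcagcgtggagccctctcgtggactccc
Bdnf most upstream window, chr2:109674450-109674699, plus strand: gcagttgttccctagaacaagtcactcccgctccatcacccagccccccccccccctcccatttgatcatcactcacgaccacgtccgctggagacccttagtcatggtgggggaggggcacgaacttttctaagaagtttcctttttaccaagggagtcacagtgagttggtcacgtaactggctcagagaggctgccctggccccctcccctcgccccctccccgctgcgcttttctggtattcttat
Ntf3 downstream window, chr6:126164961-126165210, minus strand: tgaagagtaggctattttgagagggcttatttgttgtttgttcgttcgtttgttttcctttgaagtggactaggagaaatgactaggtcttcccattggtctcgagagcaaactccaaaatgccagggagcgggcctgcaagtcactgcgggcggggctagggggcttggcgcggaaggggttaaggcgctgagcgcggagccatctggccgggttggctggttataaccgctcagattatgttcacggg

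The 7 genes lie on 7 chromosomes. In the files' coordinates, which are those of mm10, Bdnf (ENSMUSG00000048482) spans chromosome 2 from 109674700 to 109727007 on the plus strand and Ntf3 (ENSMUSG00000049107) chromosome 6 from 126101412 to 126166910 on the minus strand. Ntrk2 (ENSMUSG00000055254) spans chromosome 13 from 58806569 to 59133970 on the plus strand, Ntrk3 (ENSMUSG00000059146) chromosome 7 from 78175959 to 78738012 on the minus strand, and Ngfr (ENSMUSG00000000120) chromosome 11 from 95568818 to 95587735 on the minus strand. Vgf (ENSMUSG00000037428) spans chromosome 5 from 137026392 to 137033351 and Creb1 (ENSMUSG00000025958) chromosome 1 from 64532645 to 64604548, both on the plus strand. Genes that overlap Bdnf, Ntrk2 and Ntrk3 in the tables held few reads: at most 3 for Gm45346 over Bdnf, at most 9 for any gene over Ntrk2, and 27 to 91 for Gm9885, on the opposite strand of Ntrk3, against 3694 to 7124 for Ntrk3 itself. Whether the counting used strand was not stated.

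The libraries held 16031464 to 18566712 reads assigned to genes. Values are FPKM, reads scaled by library size and by 1 length per gene, from 1714 bases for Ntf3 to 30170 for Ntrk3 among the 7. Transcript forms were pooled, so levels set beside each other between genes depend on these lengths. The Con and HMD libraries appear in a table of those 2 groups and again, with slightly other values, in a later table of all 3. HMD against Con was taken from the former and the rest from the latter. In the later table the Bet+HMD libraries stood apart, with 25315 to 25663 genes detected and FPKM sums of 249135 to 258514, against 20816 to 23272 genes and sums of 288439 to 307899 in the other 6. The 10 hippocampal neuron markers were detected in all groups, and summed to 210.1 to 214.7 FPKM in Bet+HMD, 219 to 259 in HMD and 255 to 287 in Con. HMD replicate 1 stood apart in 10 thalamus markers, which summed to 132.6 FPKM there, to 51.4 and 63.5 in the other HMD libraries, to 26.5 to 37.4 in Con and to 40.5 to 42.2 in Bet+HMD. In HMD against Con, 7 of the 9 thalamus markers tested had an unadjusted limma p under 0.05, all higher, against 4.56% of all genes. At that threshold stood also 3 of 5 blood markers and 2 of 7 striatum markers, all higher, 4 of 10 hippocampal neuron markers (1 higher, 3 lower), 1 of 7 mural and meningeal markers, lower, and none of the neuron (5), astrocyte (6), oligodendrocyte (6), microglia (6), choroid plexus (5) and sex-linked (4) genes tested, and 0 marker genes were called. Calls at an adjusted limma p under 0.05 were common over all genes tested. They made up 48.3% in Bet+HMD against HMD (22.8% higher, 25.5% lower) and 39.7% in Bet+HMD against Con (19.4% higher, 20.4% lower). In Bet+HMD against HMD, calls were all lower in the markers of hippocampal neurons (4 of 10), astrocytes (2 of 6), oligodendrocytes (3 of 6), microglia (3 of 6), blood (2 of 5) and thalamus (4 of 9). They went both ways in those of neurons (3 of 5), mural and meningeal cells (2 of 7), striatum (3 of 7) and sex-linked genes (3 of 4), and were 0 of 5 for choroid plexus. In Bet+HMD against Con calls were all lower for neurons (2 of 5), microglia (3 of 6), and astrocytes and oligodendrocytes (2 of 6 each). They were all higher for thalamus (2 of 7), striatum (2 of 6) and sex-linked genes (2 of 4). For hippocampal neurons 5 of 10 were called, 1 higher and 4 lower. Mural and meningeal cells (2 of 7) and blood (2 of 5) also went both ways, and choroid plexus had 0 of 5. The 5 markers of basal forebrain cholinergic neurons were too low to test. The part of other tissue in the results below was not tested, and the values of Bdnf, Ntf3 and Ntrk3 that involve HMD are given also without HMD replicate 1. Leaving it out did not remove the marker excess. In HMD against Con 6 of 8 thalamus markers then had an unadjusted limma p under 0.05, all higher, with a median log2 fold change of 0.62. So had 2 of 5 blood and 2 of 7 striatum markers, all higher. Lower were 1 of 10 hippocampal neuron and 1 of 7 mural and meningeal markers, against 2.89% of all genes either way. In bulk tissue, fewer cells of a type and less RNA per cell cannot be told apart.

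**Figure D1:**
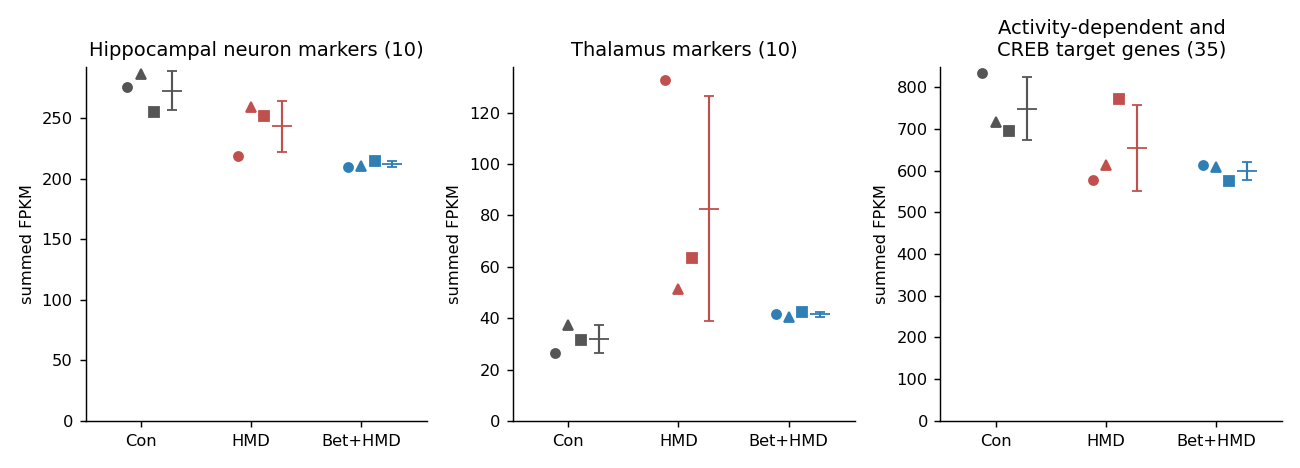
Summed FPKM (vertical axes, from 0) of the hippocampal neuron markers, the thalamus markers and the activity-dependent and CREB target genes in each of the 9 libraries of the table with all groups, with the mean ± SD (n = 3). HMD replicate 1 stands at 132.6 FPKM for the thalamus markers, above the other 8 libraries, and the 3 Bet+HMD libraries lie below every Con library for the neuron markers and the activity-dependent genes.

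Among the 7 genes, Vgf and Ntrk2 had the highest FPKM in every group, and Ngfr the lowest. In Con of the 2-group table Vgf stood at 45.1 ± 8.98 FPKM (SD, n = 3, as for all means below) and Ntrk2 at 41.8 ± 4.36, and their ranges overlapped. Bdnf followed at 8.45 ± 0.218 and Ntrk3 at 8.12 ± 0.938, overlapping each other and below both of the former in every library. Creb1 at 4.88 ± 0.806 and Ntf3 at 4.24 ± 1.02 overlapped as well, and Ngfr lay at 0.688 ± 0.138, under all others in every library. In Bet+HMD the order differed in the middle: Ntrk3 stood at 13.0 ± 0.600 FPKM, above Creb1 at 5.20 ± 0.186 and Bdnf at 5.18 ± 0.261, which overlapped, and above Ntf3 at 2.53 ± 0.404. The replicates of Bdnf were closest in Con, where its coefficient of variation was 2.58%, and spread most in HMD, at 25.6%.

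**Figure D2:**
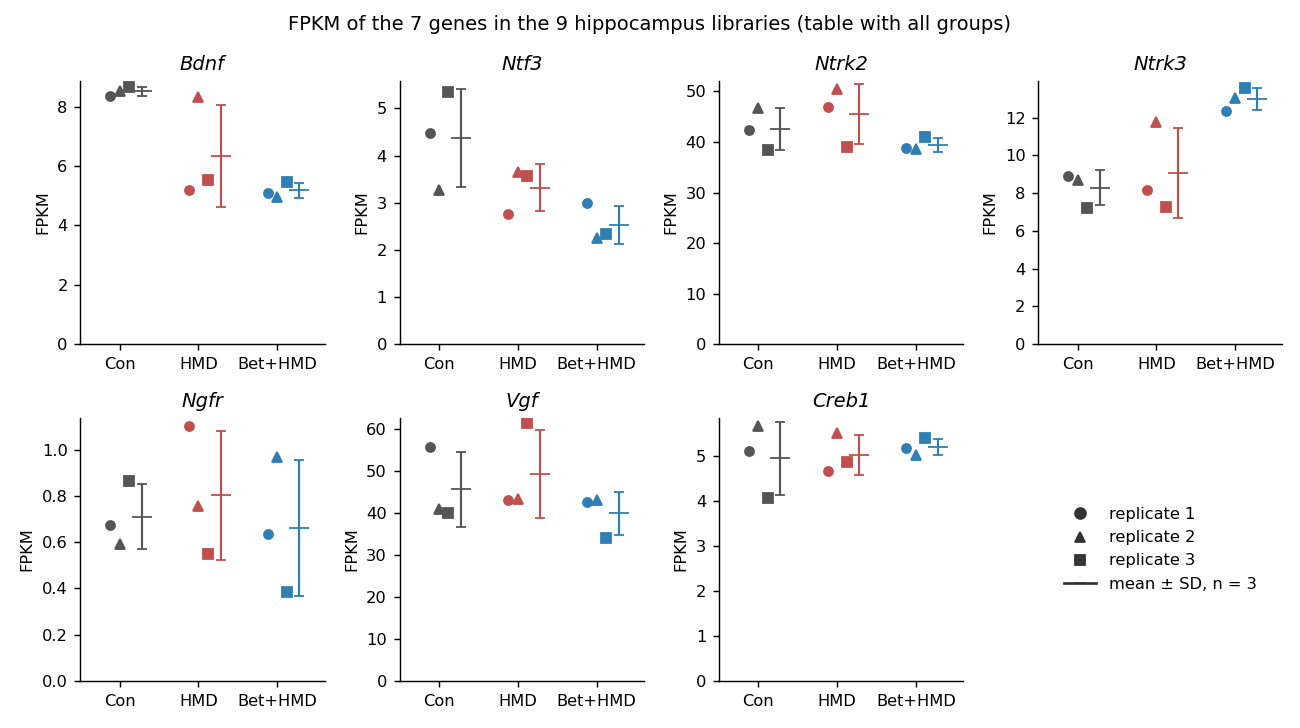
FPKM of each of the 7 genes (vertical axes, from 0) in the 9 libraries of the table with all groups, with symbols for the replicate numbers and the mean ± SD (n = 3) beside them. Bdnf lies at 8.35 to 8.65 FPKM in Con and 4.97 to 5.47 in Bet+HMD with HMD replicate 2 near the Con values, and Ntrk3 lies highest in Bet+HMD.

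HMD against Con asked what the methionine diet did to these genes. None of the 6 that could be tested was called at an adjusted p of 0.05, and neither was any of the 12989 genes tested (0%). Ngfr fell under the filter of a mean of 1 FPKM. At an unadjusted p under 0.05 stood 592 genes (4.56%), among them 1 of the 6, Bdnf. A voom fit to the recovered reads also called 0 genes, with 745 of 16116 at an unadjusted p under 0.05. The ranges of HMD and Con were apart for 1 of the 6, again Bdnf, and for 9.37% of all genes tested, and 1 of 6 is read as near that background.

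Bdnf, the ligand of TrkB, measured 8.28, 8.38 and 8.70 FPKM in Con replicates 1 to 3 and 5.15, 8.05 and 5.45 in HMD replicates 1 to 3. Replicates 1 and 3 of HMD were low, and replicate 2 sat just under the lowest Con library. The log2 fold change was -0.41 (SE 0.158, 95% interval -0.78 to -0.04), with an unadjusted limma p of 0.033 and an adjusted p of 0.98. The size turned on HMD replicate 2: without it the log2 fold change was -0.58 (adjusted p = 0.64), and without HMD replicate 1, the library rich in thalamus markers, it was -0.31 (adjusted p = 1.0).

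Ntf3, which encodes neurotrophin-3, measured 4.34, 3.17 and 5.20 FPKM in Con and 2.73, 3.47 and 3.51 in HMD, on 87 to 157 reads a library. The groups overlapped through Con replicate 2, and the log2 fold change was -0.29 (SE 0.168, adjusted p = 0.98). Without HMD replicate 1 it was -0.20, without Con replicate 2 -0.45 (adjusted p = 0.60) and without Con replicate 3 -0.16 (adjusted p = 1.0). The 95% interval of the difference, -0.68 to 0.10, allows a lower level as well as none.

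The receptors overlapped between the groups. Ntrk2 measured 41.8, 46.1 and 37.4 FPKM in Con and 46.7, 49.2 and 38.4 in HMD, with a log2 fold change of 0.10 (95% interval -0.22 to 0.41). Ntrk3 measured 8.77, 8.54 and 7.04 FPKM in Con and 8.09, 11.4 and 7.11 in HMD, with a log2 fold change of 0.10 (95% interval -0.31 to 0.50). One HMD library, replicate 2, carried the higher mean of Ntrk3, and without it the log2 fold change was -0.08, against 0.14 without HMD replicate 1. Ngfr measured 0.652, 0.572 and 0.840 FPKM in Con and 1.08, 0.720 and 0.555 in HMD, on 33 to 69 reads a library. It was highest in HMD replicate 1, where the 5 markers of basal forebrain cholinergic neurons, cells known for p75, summed to 2.23 FPKM against 0.39 to 0.53 in the other 5 libraries, and their part in the Ngfr value was not tested. In a fit with no filter its log2 fold change was 0.07 (95% interval -0.29 to 0.44).

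Vgf, which encodes a precursor of secreted neuropeptides, measured 55.4, 40.9 and 39.0 FPKM in Con and 43.0, 42.3 and 60.8 in HMD. Each group had 1 high library, Con replicate 1 and HMD replicate 3, and the log2 fold change was 0.11 (95% interval -0.34 to 0.55). Creb1 measured 5.002, 5.61 and 4.01 FPKM in Con and 4.57, 5.32 and 4.80 in HMD. All HMD libraries lay within the range of Con, and the log2 fold change was 0.01 (95% interval -0.30 to 0.32).

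Bet+HMD against HMD set 2 weeks of betaine after the diet against the diet alone. The groups may also differ in age and in time since the diet began, which cannot be told apart from betaine. Of the 6 genes tested 1 was called, Ntrk3, which rose. This stands against 48.3% of all 13672 genes called, 22.8% of them higher and 25.5% lower (both of all genes tested), so a call in this comparison was common and the 6 genes held fewer calls than that share. The ranges were apart for 2 of the 6, Ntrk3 and Vgf, and for 60.1% of all genes. The FPKM sums of the Bet+HMD libraries were lower. Rescaling to TPM, where each library has the same sum, shifted the median log2 fold change over the genes tested from -0.03 to 0.16. It took the share of calls that were higher from 47.2% to 69.5%. TPM values are larger than FPKM and the same 1 was added to them, so the fit on TPM also shrinks low genes less. The parts of the equal sums and of the added 1 were not separated.

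Ntrk3, the receptor of neurotrophin-3, measured 12.4, 13.0 and 13.6 FPKM in Bet+HMD and, in the same table, 8.15, 11.7 and 7.25 in HMD. Every Bet+HMD library was above every HMD library, with HMD replicate 2 the nearest of them. The log2 fold change was 0.50 (SE 0.156, 95% interval 0.14 to 0.87, adjusted p = 0.0329), and 0.73 after rescaling to TPM (adjusted p = 0.0097). The call was lost with no filter on low genes (adjusted p = 0.076) and on leaving out any library but HMD replicate 2. Those fits gave log2 fold changes of 0.37 to 0.53 with adjusted p from 0.069 to 0.099, and the fit without HMD replicate 1 gave 0.45 (adjusted p = 0.099). Without HMD replicate 2 it was 0.69 (adjusted p = 0.0011).

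Bdnf measured 5.10, 4.97 and 5.47 FPKM in Bet+HMD and 5.19, 8.31 and 5.52 in HMD. The Bet+HMD libraries lay at the level of HMD replicates 1 and 3, below HMD replicate 2, and the log2 fold change was -0.23 (95% interval -0.59 to 0.14, adjusted p = 0.26). Without HMD replicate 2 it was -0.04, and without HMD replicate 1 -0.34 (adjusted p = 0.14), and after rescaling to TPM -0.06 (adjusted p = 0.80). Ntf3 measured 2.99, 2.24 and 2.35 FPKM in Bet+HMD against 2.75, 3.65 and 3.56 in HMD, overlapping through HMD replicate 1. Its log2 fold change was -0.29 (95% interval -0.59 to 0.01, adjusted p = 0.094). Without HMD replicate 1 it was -0.39 (adjusted p = 0.045), and under quantile normalization -0.45 (adjusted p = 0.023). It was -0.18 after rescaling to TPM (adjusted p = 0.36), -0.30 with voom (adjusted p = 0.28) and -0.24 without Bet+HMD replicate 2 (adjusted p = 0.26).

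The remaining genes were not called in Bet+HMD against HMD. Ntrk2 measured 38.7, 38.6 and 41.0 FPKM in Bet+HMD, within the HMD range of 39.0 to 50.5 or just under it, with a log2 fold change of -0.19 (adjusted p = 0.15) that was 0.0023 after rescaling to TPM. Without HMD replicate 3 it was -0.30 (adjusted p = 0.014). Vgf measured 42.5, 43.0 and 34.1 FPKM, each just or well under the lowest HMD library of 43.1, with a log2 fold change of -0.29 (95% interval -0.66 to 0.09, adjusted p = 0.17). It was -0.09 after rescaling to TPM, -0.02 under quantile normalization and -0.12 without HMD replicate 3. Creb1 measured 5.17, 5.03 and 5.40 FPKM, within the HMD range of 4.67 to 5.52, with a log2 fold change of 0.05 (95% interval -0.15 to 0.24), and of 0.24 after rescaling to TPM (adjusted p = 0.073). Ngfr measured 0.635, 0.968 and 0.383 FPKM on 23 to 59 reads, the widest spread of the 7 genes in that group, with a coefficient of variation of 44.3%.

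Bet+HMD against Con set the betaine group against the standard diet. Of the 6 genes tested 3 were called: Bdnf and Ntf3 fell and Ntrk3 rose. Of all 13643 genes 39.7% were called, 19.4% higher and 20.4% lower, so 3 of 6 was near the share over all genes. The same 3 did not overlap between the groups, against 55.1% of all genes. Rescaling to TPM moved the median of all genes from -0.04 to 0.17 and the share of calls that were higher from 48.8% to 73.5%. This comparison shares its libraries with the others, so its values are set beside them and not used as a repeat of them.

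Bdnf was 8.35, 8.51 and 8.65 FPKM in Con of the later table and 4.97 to 5.47 in Bet+HMD, so the lowest Con library was well above the highest Bet+HMD library. The log2 fold change was -0.62 (SE 0.0747, 95% interval -0.80 to -0.45, adjusted p = 0.00124), and -0.48 after rescaling to TPM (adjusted p = 0.0067). It was called in the fits with any library left out. Ntrk3 was 8.92, 8.69 and 7.22 FPKM in Con, all under the lowest Bet+HMD library. The log2 fold change was 0.60 (SE 0.0985, 95% interval 0.36 to 0.83, adjusted p = 0.0040), and 0.85 after rescaling to TPM (adjusted p = 0.0014), and it too was called with any library left out.

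Ntf3 was 4.48, 3.28 and 5.36 FPKM in Con against 2.24 to 2.99 in Bet+HMD, on 68 to 157 reads a library. The log2 fold change was -0.59 (SE 0.164, 95% interval -0.98 to -0.21, adjusted p = 0.027). This call was lost after rescaling to TPM (-0.51, adjusted p = 0.091), with voom on the recovered reads (-0.69, adjusted p = 0.058) and with no filter (-0.59, adjusted p = 0.062). It was also lost without Con replicate 1, Bet+HMD replicate 2 or Bet+HMD replicate 3, at -0.57, -0.54 and -0.56 (adjusted p = 0.078, 0.094 and 0.090). Ntrk2, at -0.10, Vgf, at -0.18, and Creb1, at 0.07, were not called, and after rescaling to TPM they stood at 0.12, 0.04 and 0.29 (adjusted p = 0.34, 0.87 and 0.10). Ngfr stood at -0.05 in the fit with no filter.

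**Figure D3:**
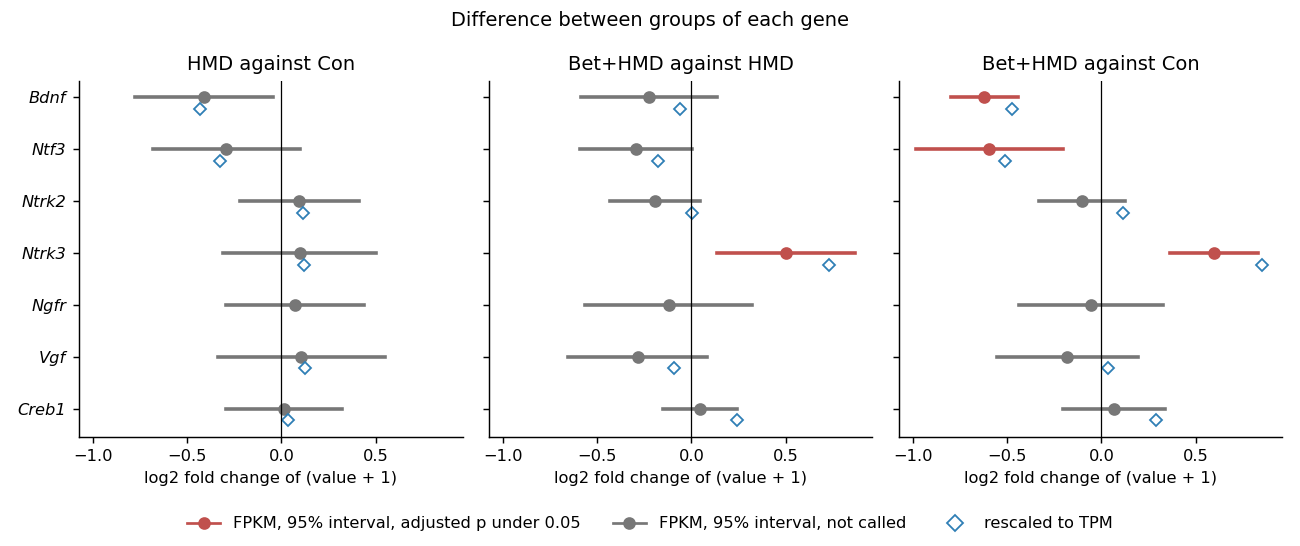
Log2 fold change of each of the 7 genes in the 3 comparisons, on the scale of log2(value + 1), with its 95% interval from limma (red where the adjusted p was under 0.05) and the value after rescaling to TPM (open diamonds, for the 6 genes tested). Intervals clear of 0 in the comparisons with Bet+HMD belong to Bdnf (-0.62) and Ntf3 (-0.59) against Con and to Ntrk3 against HMD (0.50) and Con (0.60).

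Bdnf and Ntrk3 were also set against each other within each library, where no scaling between libraries enters. This pair was chosen after their values were seen, so the ratio is a description. In Con the ratio of Ntrk3 FPKM to Bdnf FPKM was 1.07, 1.02 and 0.835, in HMD 1.57, 1.41 and 1.31, and in Bet+HMD 2.42, 2.63 and 2.48. The 3 groups did not overlap, and the means were 0.975 ± 0.123, 1.43 ± 0.130 and 2.51 ± 0.105. Bet+HMD and Con were already apart in each gene alone, in opposite directions, so the ratio had to part them. In Bdnf alone HMD, at most 8.31 FPKM, was already under Con, at least 8.35. In Ntrk3 alone Bet+HMD, at least 12.37 FPKM, was already above HMD, at most 11.75. How many other gene pairs part the groups was not computed, and the level of the ratio depends on the gene lengths used. HMD replicate 2, which was near the Con level of Bdnf, had the highest Ntrk3 of the 6 Con and HMD libraries.

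**Figure D4:**
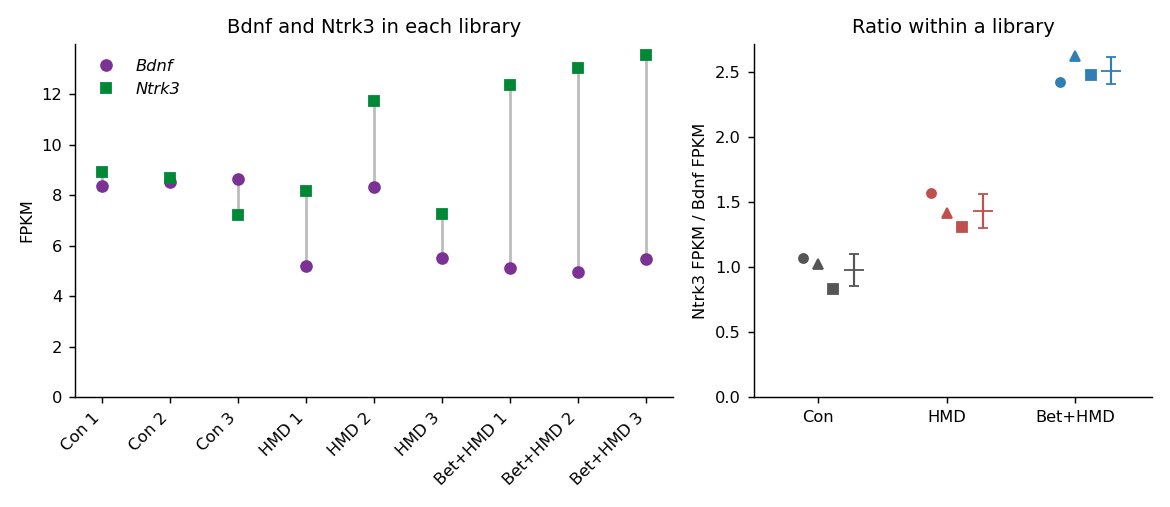
Left, FPKM of Bdnf (circles) and Ntrk3 (squares) in each of the 9 libraries, joined by a grey line. Right, the ratio of the 2 FPKM values within each library with the mean ± SD (n = 3), at 0.835 to 1.07 in Con, 1.31 to 1.57 in HMD and 2.42 to 2.63 in Bet+HMD.

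The other genes of the pathway were read from 5 lists, 4 of which hold some of the 7 genes. In HMD against Con no gene of any list was called. At an unadjusted p under 0.05 stood 2 of 17 genes that make, process and release the ligands (Bdnf and Sorcs1), 0 of 10 receptors and their partners, 1 of 37 genes of Trk signalling and 0 of 25 of the CREB family with its coactivators and kinases. Of the activity-dependent and CREB target genes it was 10 of 34, 2 higher and 8 lower, with Bdnf among the latter. Over all genes tested 4.56% stood at such a p. The median log2 fold change of this list was -0.16, against -0.0038 over all genes. Without HMD replicate 1 the count was 5 of 35, 2 higher and 3 lower, with a median of -0.12. In that fit 2.89% of all 12996 genes stood at such a p. Many of these are immediate early genes, known to follow neuronal firing within minutes. Npas4, an early transcription factor known to act on Bdnf, had the smallest p of that list, at 5.13, 3.98 and 3.899 FPKM in Con and 2.28, 1.42 and 2.54 in HMD, with no overlap (log2 fold change -0.80, SE 0.175, adjusted p = 0.73). Penk, the enkephalin precursor, went from a mean of 8.58 to 16.2 FPKM (log2 fold change 0.84, adjusted p = 0.86). Outside the 7 genes, the 2 lowest p in the ligand list belonged to Sorcs1, a sorting receptor, at 0.35, and Pcsk2, a prohormone convertase, at 0.20 (unadjusted p = 0.027 and 0.11), and in Trk signalling to Akt2, a kinase of the PI3K pathway, at -0.30, and the adaptor Sh2b2 at 0.34 (adjusted p = 0.98 for each). Outside the 7 genes, the 2 with the lowest p among the receptors were Ripk2 (-0.21) and Traf6 (0.17), and in the CREB list the coactivator Crebbp (0.25) and the kinase Camkk2 (-0.11), also at adjusted p = 0.98.

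In Bet+HMD against HMD calls went both ways in every list but that of the receptors. Over all genes tested 48.3% were called, 22.8% higher and 25.5% lower. In the ligand list 2 of 17 rose and 2 fell. Cpe, carboxypeptidase E, known for sorting and trimming prohormones and proBDNF, measured 723, 710.7 and 714 FPKM in Bet+HMD and 1219, 1343 and 1245 in HMD, and fell (log2 fold change -0.82, SE 0.072, adjusted p = 2.1e-04), by 0.43 under quantile normalization. Cadps2, a dense-core vesicle protein, fell (-0.50), and the convertase Pcsk7 (0.57) and Sorcs1 (0.42) rose. Of 10 receptors and partners 2 rose and 0 fell, Ntrk3 and Kidins220, a scaffold of Trk receptors (0.19, adjusted p = 0.047). Without HMD replicate 1 neither was called. In Trk signalling 7 of 38 rose and 7 fell, the smallest p belonging to the MAPK kinase Map2k1 (-1.07), the adaptor Shc2 (0.77), the small GTPase Rap1a (-0.68) and the phosphatase Ptpn11 (-0.56). In the CREB list 5 of 25 rose and 7 fell, among them the coactivators Crtc2 (0.91) and Crebbp (0.54), which rose, and Creb3 (-0.87) and the PKA subunit Prkar1a (-0.45), which fell, though Prkar1a stood at -0.07 under quantile normalization (adjusted p = 0.41). Without HMD replicate 1 the calls were 6 of 17 in the ligand list and 0 of 10 in the receptor list. They were 9 of 38 in Trk signalling and 10 of 25 in the CREB list. In that order 3, 0, 4 and 4 were higher and 3, 0, 5 and 6 lower, where 42.5% of all 13770 genes were called. Rescaled to TPM, 7 of 17, 3 of 10, 9 of 38 and 7 of 25 rose, and 2, 0, 4 and 2 fell, where 32.9% of all genes rose and 14.4% fell.

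Of the activity-dependent and CREB target genes 4 of 33 rose and 9 (27.3%) fell in Bet+HMD against HMD. Over all genes tested 22.8% rose and 25.5% fell, so the falls were near that share. Without HMD replicate 1, where 42.5% of all genes were called, 3 of the list rose and 11 fell. After rescaling to TPM 6 rose and 6 fell, where 32.9% of all genes rose and 14.4% fell. Nptx2, a synaptic pentraxin, fell by 1.40 on the log2 scale (adjusted p = 9.8e-05), Rgs2 and Rheb fell by 0.71 and 0.51, and Nr4a2 rose by 0.70. The list medians were -0.05 for ligands, -0.03 for receptors, -0.08 for Trk signalling, 0.05 for the CREB list and -0.10 for activity-dependent genes, against -0.03 over all genes.

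In Bet+HMD against Con 2 of 17 ligand genes rose and 5 fell, with Bdnf and Ntf3 among the latter. After rescaling to TPM 5 rose and 3 fell, and under quantile normalization 3 rose and 4 fell. Over all genes 19.4% rose and 20.4% fell on FPKM, the background for each list here. The shares were 29.2% and 10.5% with TPM, and 19.2% and 19.6% under quantile normalization. Cpe (-0.82, and -0.29 with adjusted p = 0.096 under quantile normalization) and Cadps2 (-0.54) fell, and Sorcs1 (0.77) and Pcsk7 (0.50) rose. Of 10 receptors and partners Ntrk3 alone was called. After it the smallest p belonged to Rtn4r (-0.26, adjusted p = 0.19) and Maged1 (-0.16, adjusted p = 0.24), and Maged1 stood at 0.06 after rescaling to TPM. In Trk signalling 6 of 36 rose and 6 fell, with Map2k1 (-0.98), Rap1a (-0.76) and Hras (-1.08) lower and Shc2 (0.65) higher. With TPM 11 rose and 3 fell, and under quantile normalization 6 rose and 3 fell. In the CREB list 4 of 25 rose and 4 fell: Crtc2 (1.05) and Crebbp (0.77) rose and Creb3 (-0.82) and Prkar1a (-0.40) fell, the last no longer called after rescaling to TPM (-0.18, adjusted p = 0.11). Rescaled to TPM, 8 of the 25 rose and 1 fell. Of the activity-dependent and CREB target genes 0 of 34 rose and 13 fell (38.2%, where 20.4% of all genes fell), with a median of -0.33 against -0.04 over all genes. After rescaling to TPM 2 rose and 8 fell, and under quantile normalization 2 rose and 11 fell. Bdnf is among the 13. Outside the 7 genes, the smallest p in the list belonged to Gadd45b (-1.14), Nptx2 (-0.90), Rgs2 (-0.56) and Dusp1 (-0.68). Beside this, 4 of the 10 hippocampal neuron markers also fell and 1 rose, and the part of cell makeup in the list was not tested.

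**Figure D5:**
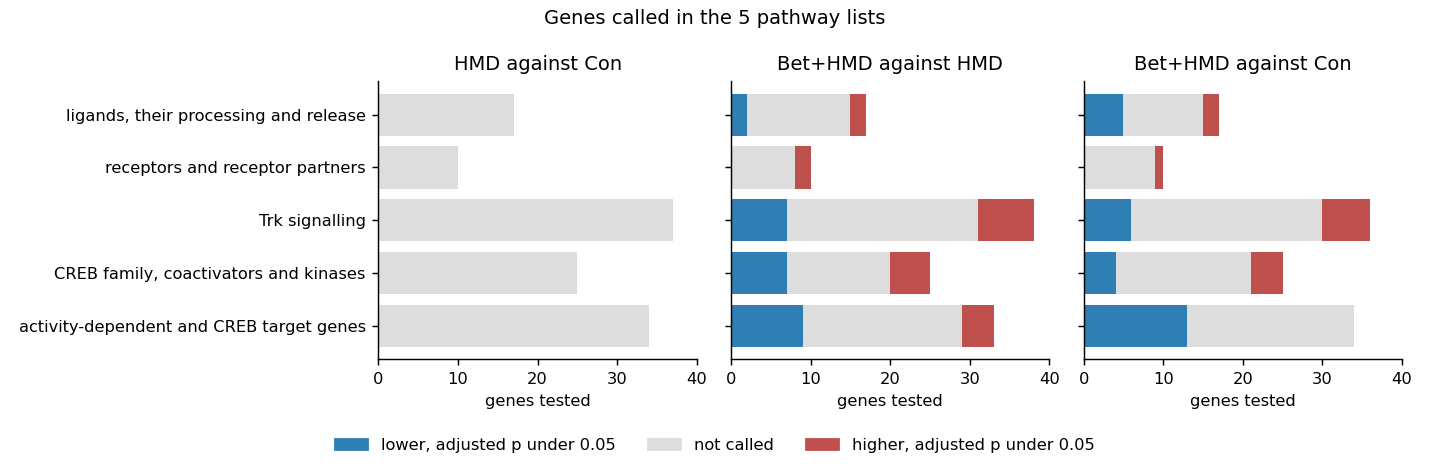
Number of genes tested (horizontal axis) in each of the 5 pathway lists and 3 comparisons, split into those called lower (blue), not called (grey) and called higher (red) at an adjusted limma p under 0.05. No gene is called in HMD against Con, and the activity-dependent list has 13 lower and 0 higher in Bet+HMD against Con.

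Across the 6 Con and HMD libraries the genes whose log2(FPKM + 1) followed each of the 7 most closely, out of 12989, were given by Pearson's r as a description, since 6 libraries with shared diet groups and depth give very high values to some of so many genes. Bdnf was most like the histone gene Hist2h2be (0.993), Clns1a (0.987) and 2010315B03Rik (0.982), and Ntf3 most like Rpsa-ps2 (0.994), Mccc2 (0.989) and Gm9885 (0.989). Ntrk2 was most like Platr25 (0.995), D3Ertd254e (0.994) and Kdm1a (0.993), and Ntrk3 most like Shisa6 (0.985), D2hgdh (0.984) and the calcium channel gene Cacna1e (0.981). Ngfr was most like Dusp15 (0.991), with Akain1 (0.959) also among its closest, Vgf most like Bcl6 (0.995), Mocs3 (0.995) and Nelfa (0.994), and Creb1 most like Zfr (0.997), Cul5 (0.994) and Gphn (0.993). Among the 7 themselves r was highest between the receptors Ntrk2 and Ntrk3 (0.817) and lowest between Ntf3 and Ntrk2 (-0.708), and it was -0.012 between Bdnf and its receptor Ntrk2.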

How the data were processed

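RNA was sequenced from 9 hippocampus samples in 3 groups of 3, assigned by the sample labels. The authors used HISAT2 for alignment to mm10 and featureCounts for gene counts (2.1.0 and 1.5.0-p3 per the labels; the study's methods give other versions), and deposited FPKM in 2 tables with a gene length column in bases. Control columns carry the prefix COL, read as Con. Whole reads were recovered from every deposited FPKM value (100% whole within 0.02 of a read) and used only as an alternative and for depth. Log2(FPKM + 1) of genes with a mean of at least 1 FPKM in the 2 groups compared was fitted with limma 3.58.1 (intensity trend, R 4.3.3), with Benjamini-Hochberg adjustment over all genes tested and a threshold of 0.05. Fold changes are on that scale, which understates low genes, and does so less with TPM, where the same 1 was added to larger values. The 3 libraries a group limit precision, and nothing says whether samples were separate animals, so p-values measure the spread between samples. That spread was small in Bet+HMD for many values. Oligodendrocyte markers summed to 732 to 739 FPKM there, to 753 to 1012 in HMD and to 671 to 1143 in Con. The coefficient of variation was smallest in Bet+HMD for Ntrk2, Ntrk3, Vgf and Creb1, but not for Bdnf, Ntf3 and Ngfr. For Ntrk3 it was 4.61%, against 26.3% in HMD and 11.1% in Con. The cause was not tested. The code was tested on simulated data. The 7 genes, 5 pathway lists and 12 marker lists were chosen with earlier results of these data known. Named list genes were the up to 4 with the smallest p among those called and not among the 7, or the 2 with the smallest p where none was called. Alternatives were a pseudocount of 0.1, other filters (none, 5 FPKM), TPM, quantile and median scaling, voom on reads (mean of at least 10), no trend, all groups in 1 fit, a replicate block, each library left out, and the later table. The fit of all groups for HMD against Con and the list counts without HMD replicate 1 were chosen after seeing the data. For likeness the 3 genes with the highest Pearson's r to each of the 7 were taken, of which 1 is not reported here.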

Additional observations from a re-analysis of the deposited data

How the results depend on the processing

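Over the 3 comparisons 290 fold changes of the 6 tested genes were computed under the alternatives. Of these 263 kept their direction and their side of the threshold, 12 lost a call, 3 gained one and 12 changed sign. But 100 of the 290 were of HMD against Con, where no gene was called, so staying uncalled there says little. All losses were of Ntrk3 against HMD, called in 10 of 16 alternatives, and of Ntf3 against Con, called in 9 of 15. Bdnf and Ntrk3 against Con were called in 16 of 16 each. The count of the 7 genes called stayed at 0 in HMD against Con under every alternative and at 3 or 2 in Bet+HMD against Con. In Bet+HMD against HMD it was 1, and became 0 with no filter and 2 under quantile normalization, and lay between 0 and 1 with a library left out. Without HMD replicate 1 the gene called there was Ntf3 in place of Ntrk3, and without HMD replicate 3 it was Ntrk2. All changes of sign were in fold changes that were not called. Ntrk2 in Bet+HMD against HMD was 0.0023 with TPM and 0.067 under quantile normalization, and Creb1 was -0.019 under quantile normalization. In Bet+HMD against Con, Ntrk2 was 0.12 with TPM and 0.17 under quantile normalization, and Vgf 0.038 and 0.11. With a library left out, HMD against Con ranged from -0.082 to 0.23 for Ntrk3, from -0.061 to 0.26 for Vgf and from -0.10 to 0.10 for Creb1, and Creb1 ranged from -0.044 to 0.15 in Bet+HMD against Con. The cause of these changes was not tested. Whether the replicate numbers pair the samples was not settled. Correlations of deviations between Con and HMD libraries of the same number were -0.055, 0.35 and 0.32, with no values for unlike numbers beside them. With the number as a replicate block 0, 1 and 3 of the 7 genes were called, as without it. In HMD against Con the block took the SE of Ntrk2 from 0.136 to 0.083, and that of Vgf from 0.191 to 0.192. The adjusted limma p of Bdnf went from 0.98 to 0.61. Ngfr, on 23 to 69 reads a library, is limited by depth.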
